A study of Rattus norvegicus with 24 samples.

Results

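The genes described here encode the tools with which osteoclasts, the multinucleated cells that dissolve bone, attach to a mineralized surface, acidify it and digest its matrix, together with a hormone receptor of these cells and a secreted brake on their formation. The members are Acp5, Ctsk, Itgb3, Tcirg1, Clcn7, Calcr and Tnfrsf11b, chosen by name with every probe set that the platform annotates to one of them. These 7 of 14218 genes with a probe set of their own have 9 of the 31099 probe sets on the array, and 6 of the 9, from 5 genes, passed the filter on low signals and were tested. The samples came from the upper tibia of rats aged 1 week, which were not castrated and had no treatment named, and were cartilage separated by hand from stained 60 µm frozen sections into epiphyseal cartilage (4 arrays, from animals 1, 2, 4 and 5) and the resting, proliferative, transition and hypertrophic zones (5 arrays each, from animals 1 to 5). The transition zone is the piece between the proliferative and hypertrophic cells. The labels give no strain, genotype or transgene. Sex is given as male for the resting, proliferative and hypertrophic arrays and not given for the other 9, whose labels are also worded differently, so in any comparison with epiphyseal cartilage or the transition zone the zone and this difference cannot be told apart.

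Osteoclasts form by fusion of precursors of the monocyte lineage under the cytokines RANKL and M-CSF. They seal off a patch of bone through an integrin and pump protons into the space beneath by a vacuolar proton pump. A chloride-proton exchanger balances the charge of the pump. Cathepsin K and tartrate-resistant acid phosphatase are released into the same space. In growing long bones they and closely related cells resorb mineralized cartilage and new bone at the front where marrow meets the last hypertrophic cells. Osteoprotegerin, made by other cells, binds RANKL and holds back the formation of osteoclasts.

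The values are MAS5 signals, the Affymetrix summary of a probe set's brightness on a linear scale, and array medians lay between 135.3 and 244.6. Tests used log2(signal + 16), which makes changes of dim probe sets look smaller, and a probe set was called where limma's adjusted p was below 0.05 and the fold at least 2. A fold change is given with its standard error from the fit. Precision is limited by how few arrays there are. Summed signals of 5 hypertrophic chondrocyte markers were 6080 to 44082 in epiphyseal, 1971 to 20216 in resting, 8075 to 16698 in proliferative, 58467 to 109237 in transition and 91679 to 199681 in hypertrophic arrays, so the last 2 zones stood above the others on every array. Summed signals of 5 general chondrocyte markers were 127308 or more in all 24 arrays. Single arrays stood apart in the osteoclast genes. They were, numbered by animal, hypertrophic array 4, epiphyseal arrays 1 and 2 and resting array 1, picked out after their values were seen, and results that rest on them are given with and without them.

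Promoter sequences are shown for the pair of secreted enzyme genes whose signals moved together across arrays, Acp5 and Ctsk, and for Clcn7, whose probe set stayed dim, because all 3 windows hold the same element. That element is the M-box, TCATGTG, a core that the microphthalmia-associated factor Mitf can bind, and the windows were chosen after the matches were seen. RefSeq promoter windows of the rat assembly GRCr8, from 250 bases before to 50 after the start, were matched for 5 of the 7 members (6 windows). They run 5′ to 3′ on the gene's strand, with capitals for M-box matches on either strand (TCATGTG or its reverse complement CACATGA) and, in Clcn7, also for an E-box match, CACGTG.
Acp5 chr8:28943880-28944179 (minus strand): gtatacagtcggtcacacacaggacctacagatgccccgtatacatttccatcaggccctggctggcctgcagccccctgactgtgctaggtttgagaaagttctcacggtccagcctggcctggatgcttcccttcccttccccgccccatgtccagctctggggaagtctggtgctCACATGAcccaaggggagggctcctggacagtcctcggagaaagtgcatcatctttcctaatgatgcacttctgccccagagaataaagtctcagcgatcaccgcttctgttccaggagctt
Ctsk chr2:185747298-185747597 (plus strand): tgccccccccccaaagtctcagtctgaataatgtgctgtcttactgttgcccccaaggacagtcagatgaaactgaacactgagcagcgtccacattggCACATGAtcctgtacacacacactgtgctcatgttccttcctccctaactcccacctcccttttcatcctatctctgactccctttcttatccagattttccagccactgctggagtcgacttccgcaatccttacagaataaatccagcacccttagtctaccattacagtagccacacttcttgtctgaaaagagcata
Clcn7 chr10:14656011-14656310 (plus strand): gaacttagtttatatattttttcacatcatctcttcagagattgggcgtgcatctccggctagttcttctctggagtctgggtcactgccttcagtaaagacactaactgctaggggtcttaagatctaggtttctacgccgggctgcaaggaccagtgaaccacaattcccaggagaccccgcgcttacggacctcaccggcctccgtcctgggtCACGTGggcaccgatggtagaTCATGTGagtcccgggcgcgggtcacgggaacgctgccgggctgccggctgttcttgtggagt
The M-box match begins at position -72 in Acp5, -151 in Ctsk and -13 in Clcn7, and on the opposite strand in Acp5 and Ctsk. Of all 33469 windows of this length, 1192 (3.56%) held an M-box on either strand and 2148 (6.42%) the E-box. The short core GGAAA, part of the sites of NFAT factors, occurred in the Acp5 window and in the Ctsk window, and in 62.7% of all windows. A match to the AP-1 element TGANTCA occurred in none of the 6 windows and in 7.33% of all. The second Acp5 window and those of Calcr and Tcirg1 held no M-box. A match is a run of letters and was not tested for binding.

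Acp5 encodes tartrate-resistant acid phosphatase, the enzyme by which osteoclasts are stained in histology. Its signals (probe set 1367942_at) were 22486.5, 6035, 833 and 349.6 in epiphyseal cartilage of animals 1, 2, 4 and 5. In animals 1 to 5 they were 8290.5, 156, 1199, 271 and 402 in the resting zone, 270.2, 133, 39.6, 195 and 102 in the proliferative zone, and 403, 146, 260.1, 214 and 74.1 in the transition zone. Hypertrophic arrays of animals 1 to 5 had 1969, 1074, 1869, 26297 and 959.5. All 10 proliferative and transition arrays were low, all 5 hypertrophic arrays were above them, and in each of epiphyseal, resting and hypertrophic tissue 1 array was far brighter than the others. The highest array was 64.3 times the lowest in epiphyseal cartilage, 53.2 times in the resting zone and 27.4 times in the hypertrophic zone, and 6.82 times in the proliferative and 5.43 times in the transition zone. On the log2 scale the mean level was 11.32 ± 2.70 (SD, n = 4) in epiphyseal, 9.51 ± 2.22 in resting, 7.16 ± 0.90 in proliferative, 7.70 ± 0.84 in transition and 11.31 ± 1.94 in hypertrophic arrays (n = 5 each).

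Acp5 rose in the hypertrophic zone relative to the transition and proliferative zones. Against the transition zone the log2 fold change was 3.61 ± 0.81 (adjusted p = 0.002) and against the proliferative zone 4.15 ± 0.81 (adjusted p = 0.000215), with 5 of 5 animals higher and no overlap of the groups in either case. When hypertrophic array 4 was left out these values were 2.62 (adjusted p = 0.00652) and 3.17 (adjusted p = 0.000649). The difference from the resting zone, 1.80 ± 0.81 (4 of 5 animals higher), missed the threshold (adjusted p = 0.0779). Without resting array 1 it was 2.37 (adjusted p = 0.0258), without epiphyseal arrays 1 and 2 its adjusted p was 0.0382, and without hypertrophic array 4 it was 0.81 (adjusted p = 0.368). Hypertrophic minus epiphyseal was 0.03 ± 0.87 (adjusted p = 0.982), with animals 1 and 2 at -3.50 and -2.47 and animals 4 and 5 at 4.95 and 1.42. The near-zero mean was therefore made of large differences of opposite sign.

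In order of mean level, epiphyseal cartilage and the hypertrophic zone came first for Acp5, then the resting, transition and proliferative zones. Hypertrophic and epiphyseal tissue, hypertrophic and resting zones, and transition and proliferative zones did not differ at limma's adjusted threshold. The resting and transition zones, next to each other in that order, overlapped and were not compared by test. The proliferative minus resting difference was -2.36 ± 0.81, with lower values in 5 of 5 animals and an adjusted p of 0.052. Without hypertrophic array 4, which enters this difference only through the shared spread and the animal term, the adjusted p was 0.0114, and without resting array 1 the difference was -1.78 (adjusted p = 0.176).

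Ctsk encodes cathepsin K, the collagen-cutting protease of the resorption space. Its signals (1369947_at) were 7019.6, 3409.8, 664 and 389.9 in epiphyseal cartilage of animals 1, 2, 4 and 5. In animals 1 to 5 they were 2091, 269, 2223, 242 and 259 in the resting zone, 376, 93.4, 284, 303 and 138 in the proliferative zone, and 263.5, 113, 792, 495 and 140.3 in the transition zone. Hypertrophic arrays of animals 1 to 5 had 1120.5, 693, 2505, 28895.5 and 1123. The bright arrays were those that were bright for Acp5, with resting array 3 added, and the hypertrophic and transition groups overlapped by 1 transition array. The mean log2 level was 10.65 ± 1.93 (SD, n = 4) in epiphyseal, 9.29 ± 1.64 in resting, 7.84 ± 0.78 in proliferative, 8.22 ± 1.12 in transition and 11.18 ± 2.14 in hypertrophic arrays (n = 5 each).

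Ctsk rose in the hypertrophic zone by a log2 fold change of 2.96 ± 0.72 against the transition zone (7.79-fold, adjusted p = 0.0039) and 3.34 ± 0.72 against the proliferative zone (10.1-fold, adjusted p = 0.000623), with 5 of 5 animals higher in both. Leaving out hypertrophic array 4 gave 1.95 (adjusted p = 0.0102) and 2.33 (adjusted p = 0.00134). Against the resting zone it rose by 1.89 ± 0.72 (adjusted p = 0.0366), higher in 4 of 5 animals and with overlapping groups, and without that array the difference was 0.88 (adjusted p = 0.205). With no block for the animal the adjusted p of this difference was 0.0746. The 5 animals gave -0.89, 1.31, 0.17, 6.81 and 2.05, so animal 4 held the largest part of the mean. Hypertrophic minus epiphyseal was 0.29 ± 0.77 (adjusted p = 0.817), lower in animals 1 and 2 (-2.63 and -2.27) and higher in animals 4 and 5 (5.41 and 1.49).

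In order of mean level the hypertrophic zone and epiphyseal cartilage came first for Ctsk, then the resting, transition and proliferative zones. The resting minus epiphyseal difference of -1.60 ± 0.77 (adjusted p = 0.349) and the transition minus proliferative difference of 0.38 ± 0.72 (adjusted p = 0.766) did not pass after adjustment. Proliferative minus resting was -1.45 ± 0.72 (adjusted p = 0.194). The resting and transition zones overlapped and were not compared by test.

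**Figure D1:**
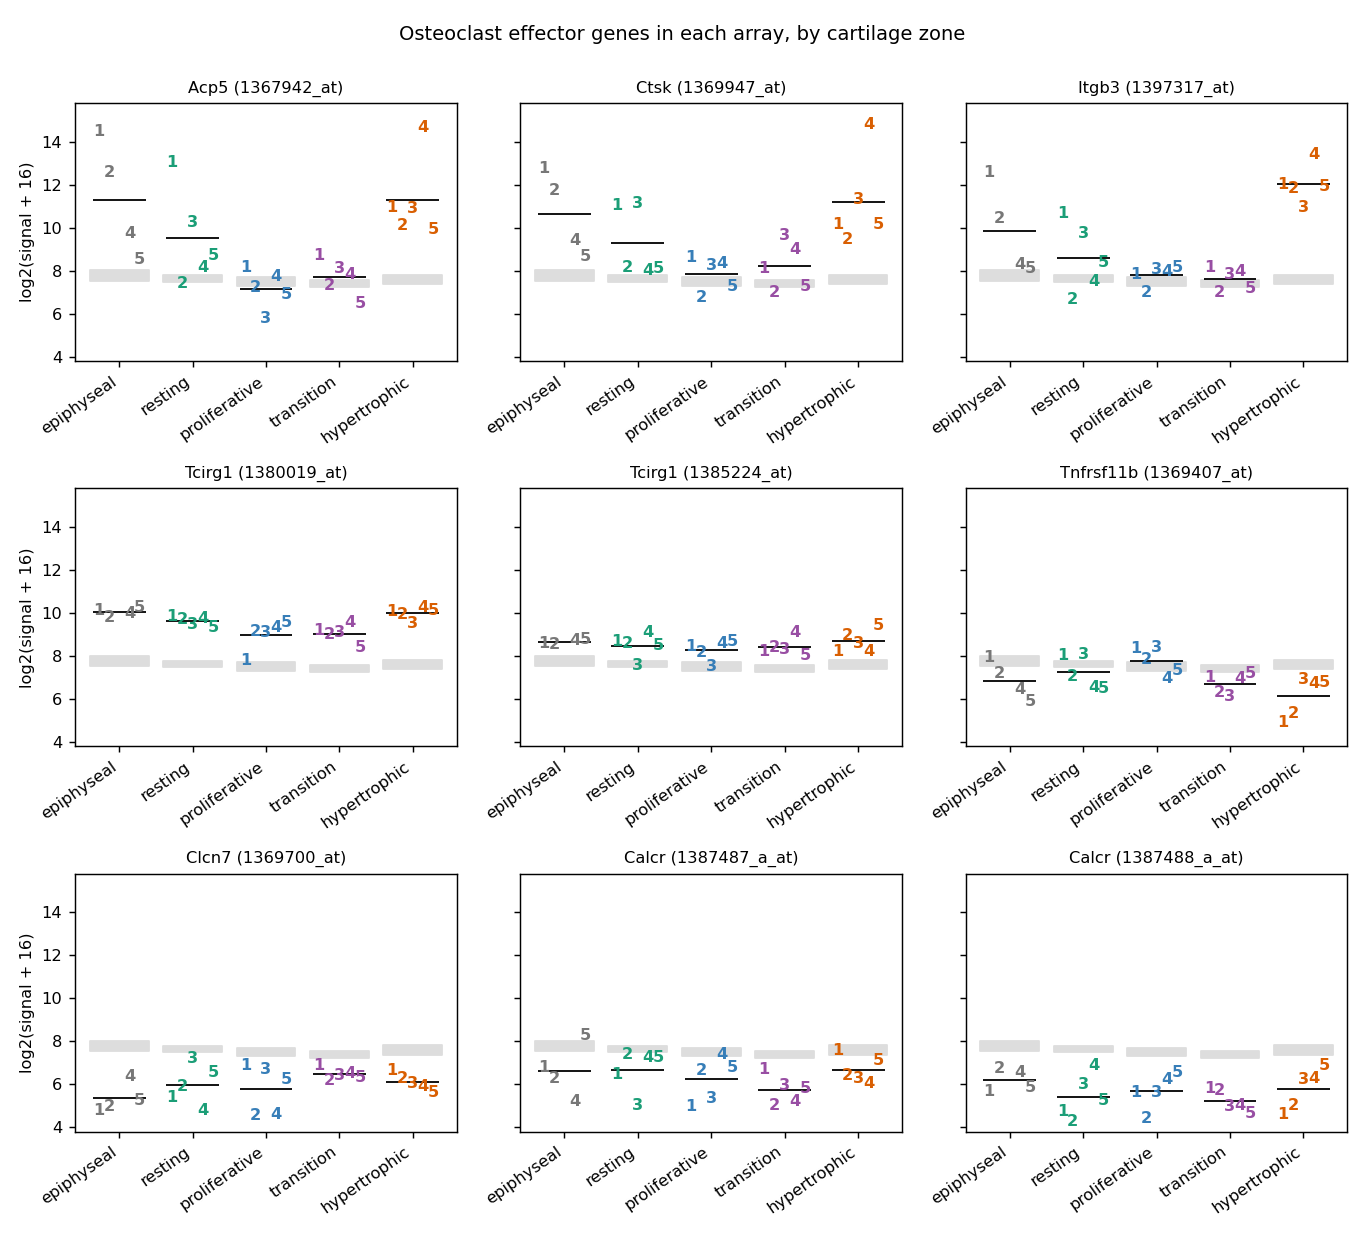
Level of the members' probe sets in each array by zone, as log2(signal + 16), with the animal's number as the point, the zone mean as a black line and the range of the array medians as a grey band. Acp5 reached a signal of 26297 in hypertrophic array 4 and 22486.5 in epiphyseal array 1, Itgb3 was 1930.0 or more in every hypertrophic array, and Calcr and Clcn7 stayed mostly below the band.

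Itgb3 encodes integrin β3, which pairs with the αv chain on osteoclasts as the receptor that seals the cell to bone, and with another partner on platelets. Its signals (1397317_at) were 6141, 1353, 302 and 260.8 in epiphyseal cartilage of animals 1, 2, 4 and 5. In animals 1 to 5 they were 1633, 84.1, 844, 165 and 319 in the resting zone, 209.5, 110.5, 249.7, 236 and 268.5 in the proliferative zone, and 267, 112, 208, 236 and 128 in the transition zone. Hypertrophic arrays of animals 1 to 5 had 4119, 3590.1, 1930.0, 10780.1 and 3900.5. All 5 hypertrophic arrays lay above all 15 resting, proliferative and transition arrays, and epiphyseal array 1 was the only one of the other 19 within their range. The hypertrophic arrays differed less among themselves than for the enzymes, the highest being 5.59 times the lowest. The mean log2 level was 9.86 ± 2.10 (SD, n = 4) in epiphyseal, 8.59 ± 1.64 in resting, 7.80 ± 0.47 in proliferative, 7.62 ± 0.51 in transition and 12.02 ± 0.89 in hypertrophic arrays (n = 5 each).

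Itgb3 rose in the hypertrophic zone against each of the other 4 tissues. The log2 fold change was 4.40 ± 0.59 against the transition zone (21.1-fold, adjusted p = 7.17e-06), 4.22 ± 0.59 against the proliferative zone (18.7-fold, adjusted p = 3.55e-06) and 3.42 ± 0.59 against the resting zone (10.7-fold, adjusted p = 4.44e-05), with 5 of 5 animals higher each time. The values with hypertrophic array 4 left out were 3.92, 3.74 and 2.94, each with an adjusted p of 0.00022 or less. Against epiphyseal cartilage it was 2.13 ± 0.63 (4.37-fold, adjusted p = 0.0126), higher in 3 of 4 animals and with overlapping groups. Without hypertrophic array 4 that difference was 1.62 (adjusted p = 0.0522), and without epiphyseal arrays 1 and 2 it was 3.86 (adjusted p = 9.36e-05). The 4 animals with both tissues gave -0.57, 1.40, 5.09 and 3.82. Below the hypertrophic zone the order was epiphyseal, resting, proliferative and transition, and none of these neighbours differed at limma's adjusted threshold (adjusted p = 0.358, 0.422 and 0.873).

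**Figure D2:**
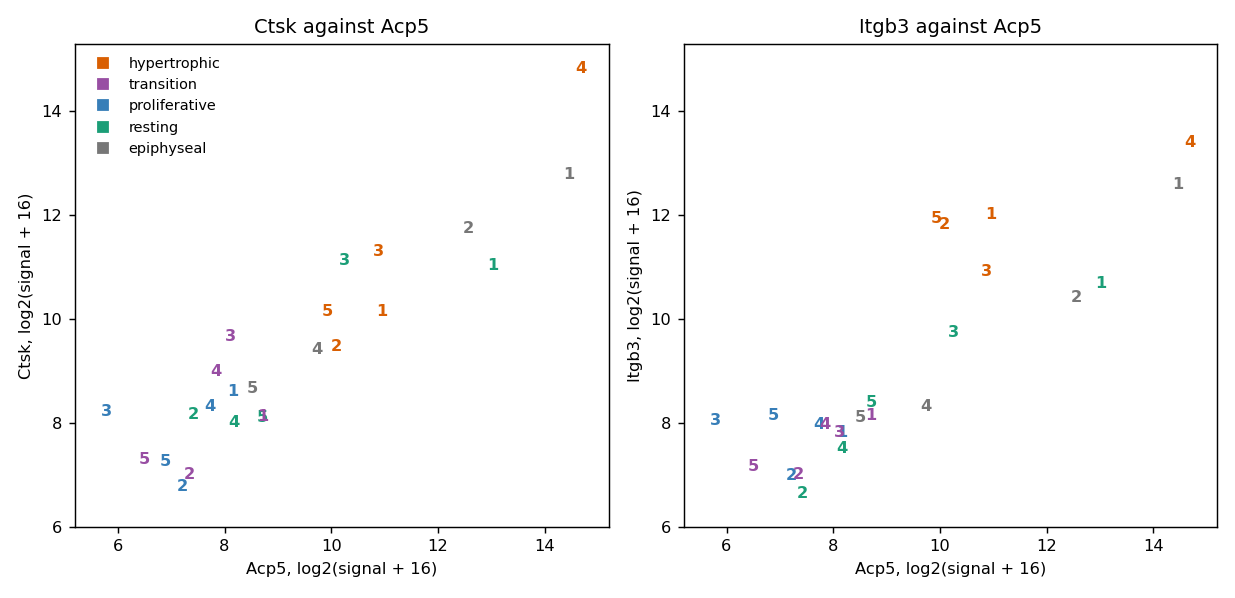
Level of Ctsk (left) and Itgb3 (right) against that of Acp5 in the 24 arrays, as log2(signal + 16), with each point drawn as the animal's number and coloured by zone. The hypertrophic array of animal 4 is highest for all 3 genes, and epiphyseal array 1 is next for Acp5, Ctsk and Itgb3.

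Tcirg1 encodes the a3 subunit of the proton pump, the form that osteoclasts place in the membrane facing bone. It has a pair of tested probe sets, which correlated at only r = 0.41 over the 24 arrays. Signals of the brighter one (1380019_at) were 1102, 881, 1005 and 1212 in epiphyseal cartilage of animals 1, 2, 4 and 5. In animals 1 to 5 they were 886, 826, 684, 842 and 622 in the resting zone, 205.5, 541.5, 531, 624 and 749.8 in the proliferative zone, and 574, 491, 526, 749 and 317 in the transition zone. Hypertrophic arrays of animals 1 to 5 had 1076, 966, 716, 1201.5 and 1085. No array stood out on the high side, and the hypertrophic group overlapped the proliferative and transition groups only through its lowest array. The mean was 1050 ± 140.9 (SD, n = 4) in epiphyseal, 772 ± 113.1 in resting, 530.3 ± 201.6 in proliferative, 531.4 ± 155.5 in transition and 1009 ± 183.8 in hypertrophic arrays (n = 5 each).

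This Tcirg1 probe set was higher in the hypertrophic zone in 5 of 5 animals against the transition zone, at a log2 fold change of 0.93 ± 0.25 (adjusted p = 0.00751), and against the proliferative zone, by 1.00 ± 0.25 (adjusted p = 0.00235). Both p-values passed, but neither fold reached the 2-fold mark, the second lying at 0.998 before rounding, so neither was counted as a call. Without animal 2, 3, 4 or 5 in turn, a Tcirg1 probe set was called higher against the proliferative zone. Against the resting zone the difference was 0.37 ± 0.25 (adjusted p = 0.243) and against epiphyseal cartilage -0.04 ± 0.27 (adjusted p = 0.932). The dimmer probe set (1385224_at) ranged from 350.2 to 419 in epiphyseal, 172 to 535 in resting, 165 to 395 in proliferative, 245 to 527 in transition and 280.8 to 678 in hypertrophic arrays. It passed no test, with log2 fold changes between -0.22 and 0.41 over the 7 comparisons. In order of mean level the brighter probe set ran from epiphyseal cartilage through the hypertrophic and resting zones to the transition and proliferative zones. The proliferative minus resting difference of -0.63 ± 0.25 did not pass (adjusted p = 0.0945), and the resting and transition zones were not compared by test.

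Clcn7 encodes the chloride-proton exchanger that balances the charge of the pump. Its only probe set (1369700_at) was below the array median in all 24 arrays and was not tested in the main fit. Signals were 11.9 to 67.3 in epiphyseal, 11.8 to 130.6 in resting, 7.2 to 101.8 in proliferative, 55.9 to 100.5 in transition and 33.8 to 83.5 in hypertrophic arrays. Calcr encodes the calcitonin receptor, through which that hormone stops resorption. Its probe set 1387487_a_at ranged from 20.2 to 293.3 in epiphyseal, 16.1 to 149.0 in resting, 15.4 to 153.3 in proliferative, 16.6 to 86.3 in transition and 48.8 to 172.8 in hypertrophic arrays, and lay above the array median in 1 array. The other Calcr probe set (1387488_a_at) ranged from 3.3 to 101.0 and was below the median in every array. The pair correlated at r = -0.02 over the 24 arrays. When all 31042 probe sets other than controls were fitted without the filter, the adjusted p across zones was 0.537 and 0.498 for Calcr and 0.552 for Clcn7. At these signals a difference between zones was not detectable, which does not show that the genes were off.

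Tnfrsf11b encodes osteoprotegerin, the soluble decoy receptor of RANKL. It is dim, above the array median in 6 of 24 arrays (1 epiphyseal, 2 resting and 3 proliferative). Without the proliferative arrays it would have missed the 4 arrays that the filter asks for. It was therefore tested only through the zone where it is highest. Signals (1369407_at) were 226, 130.2, 70.4 and 43.7 in epiphyseal cartilage of animals 1, 2, 4 and 5. In animals 1 to 5 they were 246, 118, 251.5, 78.3 and 74.1 in the resting zone, 307, 210.5, 324, 107 and 146 in the proliferative zone, and 111, 61.8, 54.0, 107 and 128 in the transition zone. Hypertrophic arrays of animals 1 to 5 had 14.0, 24.7, 104, 89.3 and 93.5. Every proliferative array was above every hypertrophic array, by the smallest margin between 107 and 104. The mean was 117.5 ± 80.78 (SD, n = 4) in epiphyseal, 153.7 ± 88.66 in resting, 218.9 ± 95.93 in proliferative, 92.36 ± 32.52 in transition and 65.18 ± 42.37 in hypertrophic arrays (n = 5 each).

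Tnfrsf11b fell in the hypertrophic zone against the proliferative zone, by a log2 fold change of -1.64 ± 0.47 (3.11-fold lower, adjusted p = 0.00714). With no filter limma's adjusted p was 0.00967. The differences in animals 1 to 5 were -3.43, -2.48, -1.50, -0.23 and -0.56. The call was lost without animal 1 (-1.19, adjusted p = 0.0674) or animal 2 (-1.43, adjusted p = 0.0579). Against the resting zone it was -1.11 ± 0.47 (adjusted p = 0.0585), lower in 3 of 5 animals, and without hypertrophic array 4 it was -1.37 (adjusted p = 0.0269). Transition minus proliferative was -1.07 ± 0.47 (adjusted p = 0.108), lower in 4 of 5 animals. In order of mean level the proliferative zone came first, then the resting zone, epiphyseal cartilage, and the transition and hypertrophic zones. Hypertrophic minus transition was -0.57 ± 0.47 (adjusted p = 0.417), and epiphyseal cartilage and the transition zone were not compared by test.

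Counted over the 6 tested probe sets, calls fell on Acp5, Ctsk, Itgb3 and Tnfrsf11b alone. Against the transition zone 3 were higher and 0 lower in the hypertrophic zone, where 6.78% of all tested probe sets were called higher and 2.49% lower. Of these, Acp5 and Itgb3 had groups that did not overlap, as had 6.78% of all in that direction. Against the proliferative zone 3 were higher, where 9.59% of all were called higher and 9.07% lower. Tnfrsf11b was called lower there but passed the filter only through its proliferative arrays, so it is not counted. Those 3 did not overlap between the groups, as 9.77% of all did not in the higher direction. Against the resting zone 2 were higher and 0 lower, where 9.32% of all were called higher and 11.8% lower. Against epiphyseal cartilage 1 was higher and 0 lower, where 6.47% were called higher and 8.41% lower. None of the 6 was called in the other 3 comparisons. In the transition against the proliferative zone 3.11% of all were called higher and 5.31% lower, and 1 of the 6, Tnfrsf11b, lay below an unadjusted 0.05 in limma. In the proliferative against the resting zone 1.97% of all were called higher and 4.12% lower, and 2 of the 6, for Acp5 and Tcirg1, lay below that unadjusted mark. In the resting zone against epiphyseal cartilage 0.651% of all were called higher and 0.859% lower, and 1 of the 6, Ctsk, lay below it. The share of all tested probe sets below that unadjusted mark was not counted, so the members' counts there have nothing to be set against. The comparisons share arrays and are not independent of each other.

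Across all 5 zones limma's moderated F test passed for 5 of the 6 probe sets and for 55.6% of all tested, so a pass is common on these arrays. The adjusted p was 3.2e-06 for Itgb3, 0.000153 for Acp5, 0.000731 for Ctsk, 0.00137 for the brighter Tcirg1 probe set and 0.0431 for Tnfrsf11b, which lost its pass without resting array 1 (adjusted p = 0.0583) and without animal 1, 2 or 3 (adjusted p = 0.226, 0.228 and 0.119). Scaling the arrays to one median moved the median of all tested probe sets by more than 0.1 in 3 comparisons. For the hypertrophic against the transition zone that median was -0.24 in place of 0.02, for the hypertrophic against the proliferative zone -0.15 in place of -0.05, and for the transition against the proliferative zone 0.09 in place of -0.06. With that scaling 43.1% of calls were higher in the hypertrophic than in the transition zone, in place of 73.2%, and Acp5 (3.36), Ctsk (2.71) and Itgb3 (4.14) were still called.

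**Figure D3:**
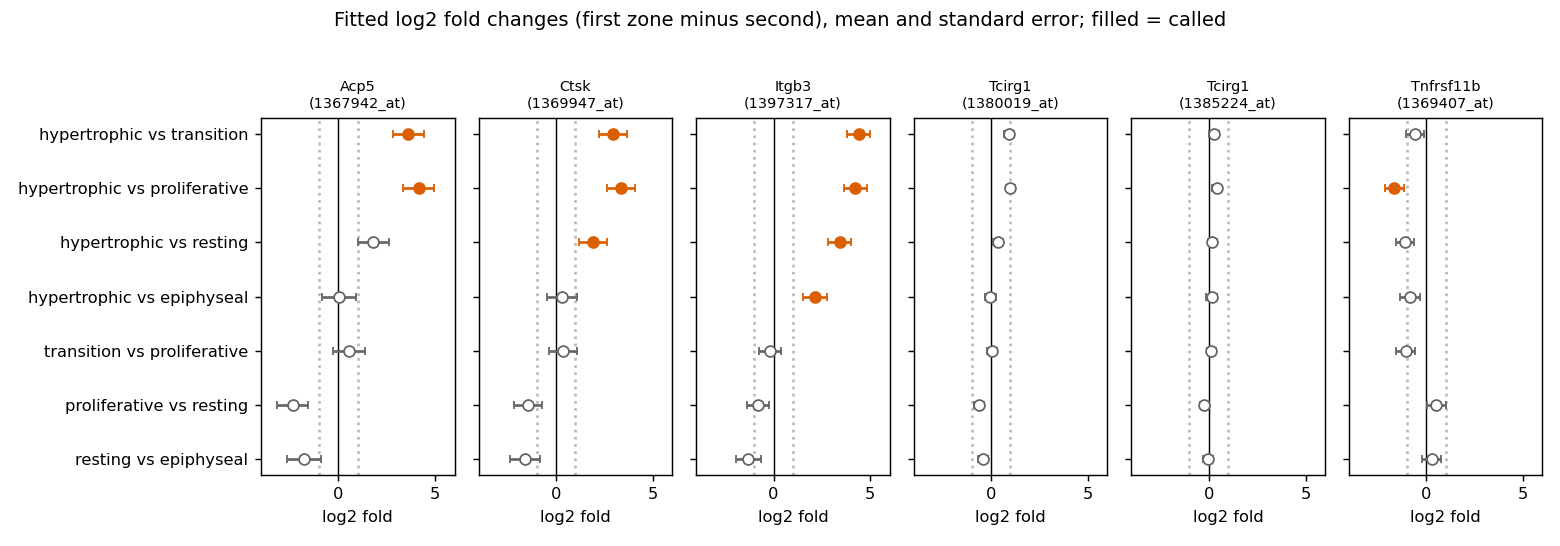
Log2 fold changes of the 6 tested probe sets in the 7 comparisons, zone named first minus zone named second, with standard errors of the fit as bars, filled orange points for calls and dotted lines at a 2-fold change. Itgb3 is called in all 4 comparisons of the hypertrophic zone, Acp5 in 2 and Ctsk in 3, and Tnfrsf11b is called lower against the proliferative zone.

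The epiphyseal arrays varied more widely than those of any other zone for Acp5 (SD 2.70 on the log2 scale) and Itgb3 (2.10), while for Ctsk the hypertrophic arrays did (2.14, against 1.93 in epiphyseal arrays). In epiphyseal cartilage animals 1 and 2 were high for Acp5, Ctsk and Itgb3 and animals 4 and 5 were low, and resting minus epiphyseal was -1.76 ± 0.87, -1.60 ± 0.77 and -1.30 ± 0.63 on the log2 scale for these genes, with adjusted p of 0.36, 0.349 and 0.358. Within animals the resting value was lower in 4 of 4 for Ctsk and in 3 of 4 for Acp5 and for Itgb3. Without epiphyseal arrays 1 and 2 the fitted differences were 0.28, 0.24 and 0.43, but that sign was not that of the pairs left. In animals 4 and 5 resting minus epiphyseal was -1.56 and 0.19 for Acp5, -1.40 and -0.56 for Ctsk and -0.81 and 0.27 for Itgb3. Hypertrophic minus epiphyseal without those arrays was 2.07 for Acp5 (adjusted p = 0.121) and 2.13 for Ctsk (adjusted p = 0.0679). Without hypertrophic array 4 these were -1.01 (adjusted p = 0.325) and -0.78 (adjusted p = 0.343), so the sign between hypertrophic and epiphyseal tissue turned on single arrays for both enzymes.

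Of the other genes of osteoclast formation and function, 43 were listed and 33 tested, and most were not called in any one comparison. In the hypertrophic zone 11 were higher and 0 lower against the proliferative zone and 22 were not called. Over all probe sets tested 9.59% were called higher and 9.07% lower. The median log2 fold change of the 33, each read by its brightest tested probe set, was 0.68, against -0.05 over all probe sets tested. The shares and medians over all, here and below, also take in dimmer probe sets of a gene and those with no symbol. Car2, the carbonic anhydrase that supplies protons to the pump, rose by 2.92 ± 0.28 (adjusted p = 9.63e-09), and Mmp9, a gelatinase of osteoclasts and other cells, by 4.55 ± 0.73 (adjusted p = 2.37e-05). Ctsl, a lysosomal protease, rose by 1.33 ± 0.15 (adjusted p = 1.5e-07) and Cst3, a secreted inhibitor of such proteases, by 1.56 ± 0.19 (adjusted p = 7.18e-07). By role, calls were made for 4 of 10 genes of acid secretion, 3 of 6 proteases and their inhibitor, 2 of 6 of attachment, 2 of 8 of the RANK axis and differentiation, and 0 of 3 of fusion.

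Against the transition zone 7 of the 33 were higher in the hypertrophic zone and 0 lower, with a median of 0.34 against 0.02 over all. Of all probe sets tested 6.78% were called higher and 2.49% lower. Car2 rose by 2.43 ± 0.28 (adjusted p = 8.71e-07), Spp1, the gene of osteopontin, a bone matrix ligand of the β3 integrin, by 2.55 ± 0.53 (adjusted p = 0.00104), and Itgav, the αv partner chain, by 1.09 ± 0.24 (adjusted p = 0.00151). Bcl6, a repressor of the osteoclast program in mice, had -0.86 ± 0.19 (adjusted p = 0.00179), under 2-fold. Against the resting zone 8 were higher and 0 lower (median 0.48, against -0.04 over all). Of all probe sets tested 9.32% were called higher and 11.8% lower. Ctsl was at 1.27 ± 0.15 (adjusted p = 2.18e-07) and Car2 at 2.12 ± 0.28 (adjusted p = 9.97e-07). Ostm1, the partner protein of the Clcn7 exchanger, was at 1.59 ± 0.29 (adjusted p = 0.000104). Without hypertrophic array 4 the count against the resting zone was 3, where 1784 of all 19213 probe sets were called higher and 2260 lower.

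Against epiphyseal cartilage 3 of the 33 were higher and 2 lower in the hypertrophic zone, close to the 6.47% higher and 8.41% lower over all tested probe sets. Car2 rose by 2.15 ± 0.30 (adjusted p = 4.77e-06), and Vcl, a linker of integrins to actin, fell by 1.01 on the log2 scale (SE 0.18, adjusted p = 0.000125). Without epiphyseal arrays 1 and 2, 9 of the 33 were called, where 1458 of all 19213 probe sets were called higher and 1653 lower. In the transition against the proliferative zone 2 were higher, where 3.11% of all were called higher. They were Cst3, by 1.69 ± 0.19 (adjusted p = 6.56e-07), and Ctsl, by 1.06 ± 0.15 (adjusted p = 1.2e-05). In the proliferative against the resting zone 3 were lower, where 4.12% of all were called lower. Among the 3 were Vcl at -1.04 ± 0.17 (adjusted p = 9.29e-05) and Cst3 at -1.08 ± 0.19 (adjusted p = 0.000348). Without resting array 1 the count was 0. In the resting zone against epiphyseal cartilage 1 was lower, where 0.859% of all were called lower. It was the transcription factor gene Mitf, at -1.02 ± 0.25 (adjusted p = 0.0278). Without resting array 1 or without epiphyseal arrays 1 and 2 the count was 0. The genes of RANKL (Tnfsf11) and its receptor RANK (Tnfrsf11a) were too dim to be tested, at 4.0 to 227.9 and 7.6 to 89.9 over the 24 arrays.

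Genes whose pattern over the 24 arrays was most like each member's were ranked by Pearson correlation of log2 signals, as a description, since the arrays share zones and animals. Acp5 was followed by Mmp9 (r = 0.914), Rac2 (0.912) and Mmp13 (0.911), Ctsk by Cd68 (0.895), Ifitm3 (0.890) and Spp1 (0.873), and Itgb3 by Dysf (0.926), Tagln2 (0.925) and Rac2 (0.924). Among the members themselves Acp5 and Ctsk correlated at 0.92, Acp5 and Itgb3 at 0.86 and Ctsk and Itgb3 at 0.85. Within the proliferative arrays alone these were 0.22, -0.22 and 0.59, and within each other zone 0.58 or more. The brighter Tcirg1 probe set was nearest to Abcg1 (0.884), Phldb2 (0.865) and Runx1 (0.864), and correlated with Acp5 at 0.58. Within zones the correlation with Acp5 lay between -0.53 (proliferative) and 0.74 (transition). Tnfrsf11b was nearest to Nasp (0.851), Mcm2 (0.828) and Cdca7 (0.810), and with Acp5 its correlation was -0.04. Within single zones of 4 or 5 arrays its correlation with Acp5 was 1.00 in epiphyseal and 0.77 in resting arrays. It was -0.28 in proliferative, -0.21 in transition and 0.30 in hypertrophic arrays. For the dim Calcr and Clcn7 probe sets the nearest genes were Scarf1 (0.771) and Suclg1 (0.708).

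Some markers of other cells, but not all, were high in the arrays where the members were high. Mmp9, itself one of the osteoclast genes, showed the same arrays. Its signals in epiphyseal cartilage were 24858.6 and 18273.7 in animals 1 and 2, against 1004 and 731.5 in animals 4 and 5, and resting array 1 had 12238, the highest of its zone. Summed signals of the 11 macrophage markers on the array were 3128 to 12363 in the hypertrophic zone, with animal 4 highest, against 1052 to 2004 in the transition, 1101 to 3121 in the proliferative and 1247 to 4031 in the resting zone. In epiphyseal cartilage the sum was 2833 to 16913, with animal 1 highest. Cd68, a lysosomal protein gene of macrophages and osteoclasts, had 4600.8 in hypertrophic array 4 and 328.3 to 538.4 in the other 4. Of the macrophage markers, Cd163, Adgre1, C1qb and Aif1 were below the array median in all 5 hypertrophic arrays, no marker was listed at 0, and Csf1r is on both this list and the osteoclast list. Of 8 tested macrophage markers, 3 were called higher and 0 lower in the hypertrophic zone against the transition zone, 3 higher and 1 lower against the proliferative zone, 2 higher and 1 lower against the resting zone, and 0 higher and 1 lower against epiphyseal cartilage, where their median log2 fold change was -1.02. The lower one was Aif1 each time, at -1.41 ± 0.43 (adjusted p = 0.0113), -1.19 ± 0.43 (adjusted p = 0.0275) and -1.33 ± 0.46 (adjusted p = 0.0311).

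The summed signal of 5 osteoblast markers was 49878 to 145115 in the hypertrophic zone, with animal 4 highest, against 7278 to 16238 in the transition zone, and 4 of 4 tested were called higher. In epiphyseal cartilage it was 11317 to 45634, with animal 1 highest, and 4 of 4 were called higher against that tissue too. Bglap, the osteoblast product osteocalcin, had 9393.4 in hypertrophic array 4 and 7.0 to 164.7 in the other 4. Spp1 had 21853.3 in that array and 1092.0 to 1625 in the other 4. For 5 erythroid markers the sum was 9537 to 32320 in the hypertrophic zone, against 1041 to 5471 in the transition zone. Animal 5 was highest in the hypertrophic zone, and 4 of 4 were called higher. In epiphyseal cartilage the erythroid sum was 3639 to 15450, with animal 1 highest, which overlapped the hypertrophic range. Against that tissue 4 of 4 were called higher. For 7 endothelial markers the sum was 900.3 to 2992, with animal 4 highest, against 542.8 to 749.2, with 3 of 5 called higher. Pecam1, Vwf and Tie1 were below the array median in all 5 hypertrophic arrays, and Vwf (-0.58) and Esam (0.07) were not called. Epiphyseal sums were 736.3 to 6081, and 0 of 5 were called against the resting zone or epiphyseal cartilage. For 4 megakaryocyte and platelet markers the hypertrophic sum was 1072 to 1845, against 419.5 to 708.4 in the transition zone. These cells also carry integrin β3. Animal 5 was highest, and 2 of 3 were called higher. Epiphyseal sums were 534.1 to 3424, and 0 of 3 were called against epiphyseal cartilage. For 4 neutrophil markers the hypertrophic sum was 1650 to 8521 (animal 5 highest), against 234.6 to 1605 in the transition zone. S100a8 and S100a9 were called higher, by 2.45 and 2.55 on the log2 scale. Camp was below the array median in every array outside the hypertrophic zone, so it was tested through hypertrophic arrays alone and is not counted. Itgam was below it everywhere and was not tested. The sum of 7 skeletal muscle markers was 29840 to 85366 in the hypertrophic zone, against 16850 to 37495 in the transition zone. Animal 1 was highest in the hypertrophic zone, and the ranges of the sums overlapped. Of the 7, 3 were called higher (Acta1, Myl1 and Ckm, by 1.90, 2.37 and 2.50 on the log2 scale). Resting sums were 19277 to 94639, and against the resting zone 1 of the 7 was called higher and 2 lower. The part of these cells in the members' differences was not tested. In tissue pieces, fewer cells of a type and less RNA per cell cannot be told apart.

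**Figure D4:**
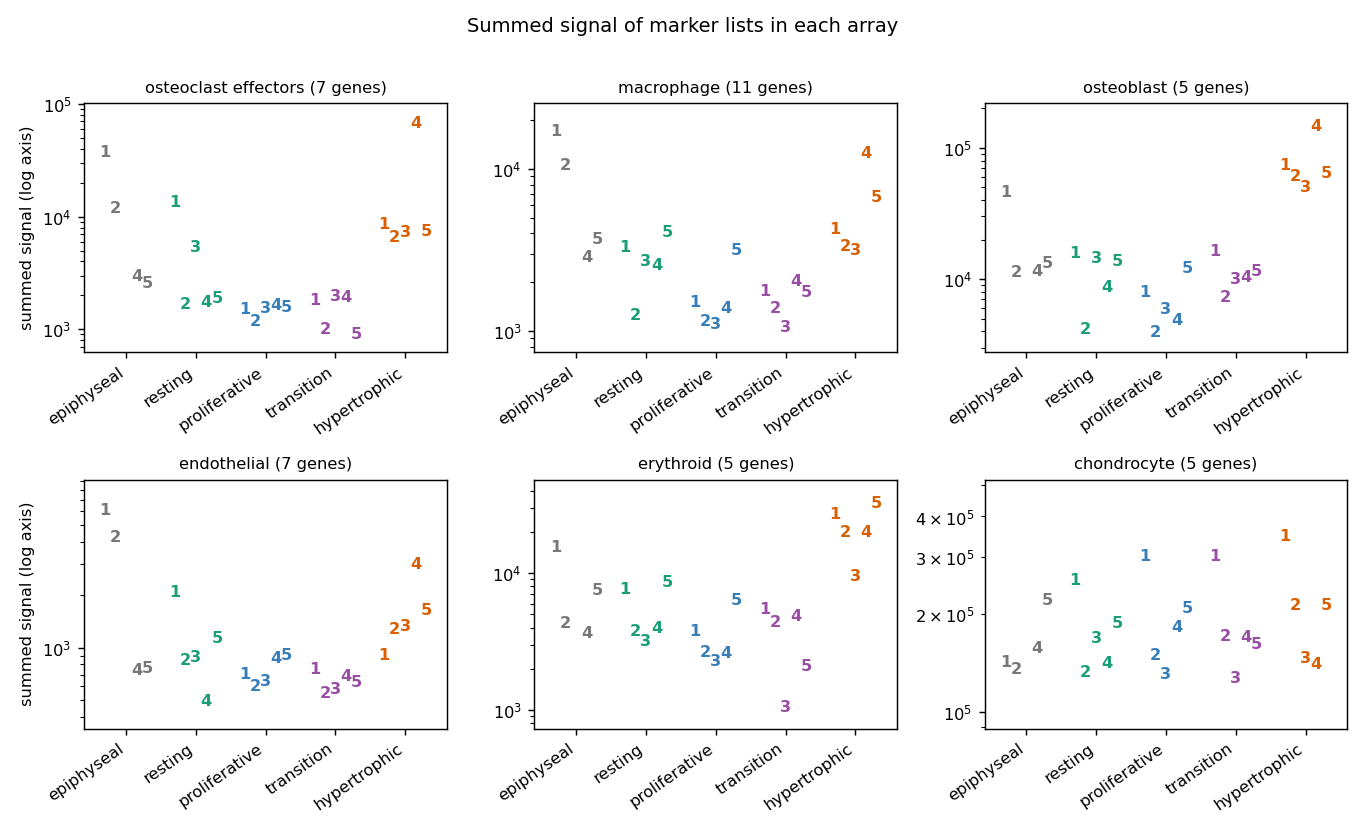
Summed signal of the osteoclast members and of marker lists of macrophages, osteoblasts, endothelial cells, erythroid cells and chondrocytes in each array, by zone on log axes, with the animal's number as the point. The osteoclast members reached 67357 in hypertrophic array 4 and 37082 in epiphyseal array 1, against at most 1955 in the transition zone and 1627 in the proliferative zone.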

How the data were processed

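Total RNA from zones cut by hand was labelled with biotin after a pair of amplification cycles from 50 to 100 ng, per the labels' protocols. The authors deposited linear intensity values made with MAS5, per the submitters' processing notes, with 1 signal for each probe set. The sources used here do not give its version. Every array had a mean of 500.1 to 500.2 after trimming 2% of probe sets at each end. No 2 arrays of a zone were duplicates (at most 50 identical values).

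From these values log2(signal + 16) was computed, with no further normalization. The 57 controls were left out, and 19213 probe sets above their array's median in at least 4 arrays were tested, using R 4.3.3 and limma 3.58.1 (lmFit, contrasts.fit, eBayes with trend). All 24 arrays entered 1 fit, with the animal as a fixed block, which left 15 residual degrees of freedom. Benjamini-Hochberg adjustment ran over all probe sets tested. The labels tie arrays to numbered animals. Same-animal arrays of different zones had deviations correlated at a median r of 0.176 (46 pairs, -0.142 to 0.36), other pairs at -0.046 (184 pairs). Transition arrays 4 and 5 and hypertrophic array 4 were not closest to arrays of their own animal.

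Gene symbols came from the platform annotation, updated to rat assembly GRCr8. The rule for named genes took all members in every comparison, up to 4 other osteoclast genes per comparison with the smallest adjusted p, and the 3 genes most correlated with each member among 10558. Members and lists were chosen with earlier results of these data known. The fit was tested on simulated data. Alternatives were a pseudocount of 1 or 64, quantile normalization, one median, a filter at the 75th percentile or none, no or a random replicate block, only the zones compared, leaving out each animal, and, added after the data were seen, leaving out single arrays. Figures used matplotlib 3.10.9 in Python 3.11.15.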

Additional observations from a re-analysis of the deposited data

Results flagged for a closer look

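In groups of 4 or 5 arrays of 1 zone, an array was picked out where its gap to the nearest other array was a large part of the group's whole range on the log2 scale (Dixon's 95% limit). Of 45 groups examined, 3 were picked out, and chance alone does so in about 1 in 20 groups. Acp5 had a signal of 26297 in the hypertrophic array of animal 4, against 1968.7 in the next highest. Itgb3 had 110.5 in the proliferative array of animal 2, the lowest of its zone, against 209.5 in the next lowest. Tcirg1 (1380019_at) had 205.5 in the proliferative array of animal 1, against 531.2 in the next lowest.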

How the results depend on the processing

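The calls of Acp5, Ctsk and Itgb3 as higher in the hypertrophic than in the transition and proliferative zones were kept under every alternative run. Counts of calls, over all probe sets and over the members, stayed within 1.5 times the main count in 190 cases and did not in 19, leaving aside the settings added after the data were seen. With the 75th percentile filter, which leaves fewer probe sets, 1001 were called in the hypertrophic against the transition zone (1781 in the main fit), 2129 against the proliferative (3585), 2446 against the resting (4049) and 1783 against epiphyseal cartilage (2859). In the transition against the proliferative zone 1037 were called (1619) and in the proliferative against the resting zone 713 (1170). Without each animal in turn the count of the resting zone against epiphyseal cartilage was 139 to 291 (290), and without hypertrophic array 4 it was 327.

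Over the members, the proliferative against the resting zone had 0 calls and became 1 with a pseudocount of 1, with the 75th percentile filter, without hypertrophic array 4 and without epiphyseal arrays 1 and 2, and 2 with only the zones compared and without the 4 outlying arrays together. It was 0 to 2 without each animal in turn. Hypertrophic against resting (2) was 1 with no replicate block, where Ctsk lost its call, and with only the zones compared. It was 3 with a random replicate block, where Tnfrsf11b was called lower (-1.11, adjusted p = 0.0447). It was also 3, with Acp5 added, without epiphyseal arrays 1 and 2, without resting array 1 and without the 4 outlying arrays together, and 1 to 3 without each animal. Hypertrophic against epiphyseal (1) was 0 without hypertrophic array 4 and 0 to 1 without each animal. Transition against proliferative (0) and resting against epiphyseal (0) were each 1 with only the zones compared. No call of a member in a comparison of zones other than these of Ctsk and Tnfrsf11b changed with no or a random replicate block.

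The hypertrophic minus epiphyseal fold of Acp5 turned to -0.009 with a pseudocount of 64, to -0.008 with no replicate block, to -1.01 without hypertrophic array 4 and to -0.004 without resting array 1. Without each animal in turn it was -1.38 to 1.07, with -0.47 without animal 5. That of Ctsk was -0.78 without hypertrophic array 4, and -1.19 to 1.15 without each animal, with -0.11 without animal 5. Resting minus epiphyseal turned to 0.28 for Acp5, 0.24 for Ctsk and 0.43 for Itgb3 without epiphyseal arrays 1 and 2, although Ctsk was lower in the resting zone in 4 of 4 animals, the 2 left included. The fit also used the resting arrays of animals left without an epiphyseal array, and their part in the sign was not tested. The brighter Tcirg1 probe set passed 2-fold against the proliferative zone with a pseudocount of 1 and with quantile normalization (1.02 each). Leaving out animal 2, 3, 4 or 5 also gave 4 member probe sets called higher there in place of 3, the added one for Tcirg1. Without animal 1 the count stayed at 3. Against the transition zone it was 4 without animal 3. The F test of Tnfrsf11b lost its pass with a pseudocount of 1 (adjusted p = 0.054), quantile normalization (0.0576) and no filter (0.0574). One median moved the share of calls that were higher to 53.6% in the transition against the proliferative zone (36.9% in the main fit) and to 42.6% in the proliferative against the resting zone (32.3%). Signals near the array background limit what can be seen of Calcr, Clcn7 and Tnfrsf11b.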
